A study of Oryza sativa with 4 samples.

Results

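The SnRK2 kinases SAPK1 to SAPK10 of rice are described here in polysomal RNA, that is, mRNA recovered from sucrose gradient fractions that held several ribosomes. The members were taken by locus: all transcripts that the deposited table assigns to Os03g27280 (SAPK1), Os07g42940 (SAPK2), Os10g41490 (SAPK3), Os01g64970 (SAPK4), Os04g59450 (SAPK5), Os02g34600 (SAPK6), Os04g35240 (SAPK7), Os03g55600 (SAPK8), Os12g39630 (SAPK9) and Os03g41460 (SAPK10). These are 10 of the 53038 loci with an annotated transcript or a splice variant, and they hold 32 of the 89715 transcripts in the table. Of the 32, 17 match an annotated transcript (class =) and 15 are class j, which means an assembled variant that shares a splice junction with the annotation. The table calls the members CAMK-like kinases and does not use the SAPK names. All 10 names were found once in RefSeq as gene synonyms, on the same chromosome and in the same order as the loci.

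SnRK2 kinases are plant serine/threonine kinases that hyperosmotic stress and abscisic acid (ABA) switch on. In the core ABA pathway, protein phosphatases 2C hold the kinases inactive, and ABA bound to its receptors blocks these phosphatases. The kinases then phosphorylate bZIP transcription factors, which in turn raise the transcription of protective genes such as dehydrins and late embryogenesis abundant (LEA) proteins. In rice all members respond to hyperosmotic stress in enzyme activity, and those of subclass III (SAPK8, SAPK9, SAPK10) are strongly activated by ABA too. Subclass I holds SAPK4 to SAPK7 and subclass II holds SAPK1 to SAPK3. Kinase activity depends on phosphorylation, which RNA does not measure.

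Seedlings of a salt-tolerant genotype, Pok (Pokkali), and of a salt-sensitive one, IR29, were compared. The 4 groups were Pok under salt, Pok under control conditions, IR29 under salt and IR29 under control conditions, with 1 polysomal library each. Seedlings were 24 days old and stood in Yoshida medium, and the salt groups received 150 mM NaCl for 24 h. Equal RNA of 3 biological replicates was pooled for each treatment according to the methods, which state this under total RNA. No group has a replicate spread, so single comparisons carry no interval or p-value, and what belongs to a genotype or treatment and what belongs to its library cannot be told apart. Every fold is a description of these libraries. The salt response shared by both genotypes was tested with the genotypes as 2 pairs.

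Values are FPKM, read fragments scaled to transcript length and to the mapped reads of the library, which take out length and so allow levels of different transcripts to be set side by side. The summed FPKM of a library ranged between 917853 (IR29 control) and 1910420 (IR29 salt), and the 5 largest transcripts held 41.4% (IR29 control) to 65.1% (IR29 salt) of it. For the 7424 annotated transcripts that no library put below 5 FPKM, the median log2 ratio came to 0.06 for Pok salt over Pok control, 0.26 for IR29 salt over IR29 control, 0.12 for Pok salt over IR29 salt and 0.33 for Pok control over IR29 control. Folds called centred below are relative to these medians. Whole seedlings hold shoot and root, and 21 chlorophyll a-b binding and Rubisco small chain transcripts summed to 3717 FPKM in Pok salt, 6103 in Pok control, 1180 in IR29 salt and 4865 in IR29 control, with 16 to 18 of them above 1 FPKM. Summed FPKM of 7 root-expressed transporters was 99.3 in Pok salt, 57.3 in Pok control, 33.0 in IR29 salt and 110.0 in IR29 control, with 4 to 6 above 1 FPKM. In such bulk samples fewer cells of a type and less RNA per cell cannot be told apart, and the part of tissue makeup in the values below was not tested.

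All 10 SAPK loci had polysomal RNA in all 4 libraries. Of the 17 annotated transcripts, 11 reached 1 FPKM and 9 reached 5 FPKM in at least one library, 8 were at 5 FPKM or more in all libraries, and 2 were listed at 0 throughout. Of the 15 class j variants, 11 reached 1 FPKM and 8 reached 5 FPKM in at least one library, 5 did so in all, and 1 was listed at 0 throughout. A value of 0 can be a failed estimate in such tables, so it is given as listed.

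Summed over its transcripts, SAPK1 was the highest of the loci in both salt libraries, while SAPK5 was highest in Pok control and SAPK8 in IR29 control. SAPK10 was lowest in all 4 libraries, at 7.11 FPKM in Pok salt, 4.75 FPKM in Pok control, 6.71 FPKM in IR29 salt and 4.01 FPKM in IR29 control. In Pok control, SAPK5 (46.3 FPKM), SAPK4 (40.5 FPKM), SAPK8 (39.4 FPKM) and SAPK2 (38.1 FPKM) formed the upper part of the order, and SAPK3 (20.3 FPKM), SAPK1 (16.8 FPKM) and SAPK7 (13.5 FPKM) came next. In IR29 control the order began with SAPK8 (31.6 FPKM), SAPK2 (31.1 FPKM) and SAPK4 (28.7 FPKM), followed by SAPK1 (17.5 FPKM), SAPK5 (16.8 FPKM) and SAPK3 (16.3 FPKM). With 1 library a group, whether neighbours in these orders differ cannot be tested. The family as a whole summed to 332 FPKM in Pok salt, 237 FPKM in Pok control, 292 FPKM in IR29 salt and 174 FPKM in IR29 control.

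**Figure D1:**
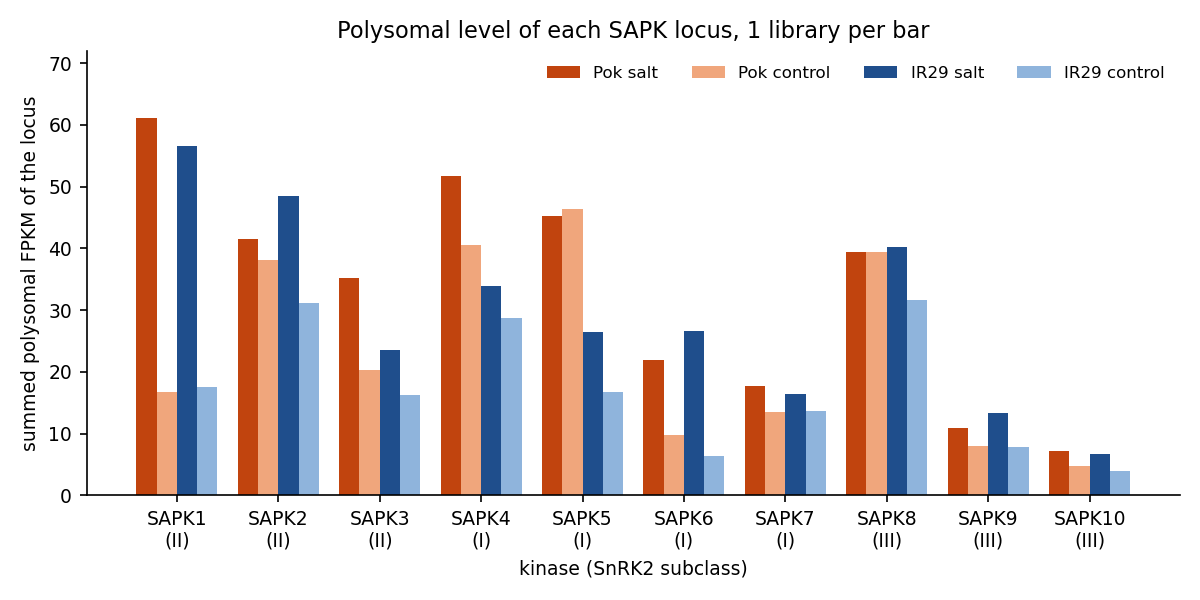
Summed polysomal FPKM of the annotated and class j transcripts of each SAPK locus (vertical axis, linear from 0), 1 bar per library, with the SnRK2 subclass under each name. SAPK1 stood at 61.1 and 56.6 FPKM in the salt libraries of Pok and IR29, against 16.8 and 17.5 FPKM in their controls, while the SAPK8 bars lay between 31.6 and 40.2 FPKM.

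Subclass II carried 41.5% of the family's FPKM in Pok salt, 31.7% in Pok control, 44.0% in IR29 salt and 37.3% in IR29 control. For subclass I the shares were 41.2% in Pok salt, 46.4% in Pok control, 35.4% in IR29 salt and 37.7% in IR29 control. Subclass III, the ABA-activated one, held the smallest share in every library, at 17.3% in Pok salt, 22.0% in Pok control, 20.6% in IR29 salt and 25.0% in IR29 control. Salt-treated seedlings thus had a larger subclass II share and a smaller subclass III share than their controls in both genotypes. Within subclass II the larger share lay mainly at SAPK1. It held 18.4% of the family in Pok salt, 7.07% in Pok control, 19.4% in IR29 salt and 10.1% in IR29 control. The SAPK2 share was smaller under salt in both genotypes, and that of SAPK3 was larger in Pok salt and smaller in IR29 salt.

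The first question was which kinases had more or less polysomal RNA after salt. A transcript or locus was considered where a library of the pair gave it 5 FPKM or more, and it was called higher or lower at a ratio of at least 2. By locus, SAPK1 and SAPK6 were called higher in both genotypes and no member was called lower. That is 2 of 10 loci higher in Pok salt over Pok control, where 12.7% of all 13997 loci considered were called higher, and 2 of 10 higher in IR29 salt over IR29 control, where the background was 16.4% of 13775 loci. None of the 10 was lower in either genotype, beside 4.03% of all loci in Pok and 4.85% in IR29. The share of members called was thus close to the background in both directions.

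With the genotypes as pairs, a limma fit of treatment and genotype on log2 of FPKM plus 1 over 12903 loci with a mean of 5 FPKM or more left 1 residual degree of freedom. Moderation with the variance of all loci raised the total to 20.17 degrees of freedom. The intervals and p-values therefore rest mostly on the spread over all loci, not on the spread between genotypes at a SAPK locus. The fit was chosen after seeing the data. In this fit SAPK1 was higher under salt by 1.72 on the log2 scale (95% interval 1.17 to 2.27, limma adjusted p 9.80e-05) and SAPK6 by 1.499 (0.95 to 2.05, limma adjusted p 0.000423), each in 2 of 2 genotypes. The other 8 members did not pass, SAPK3 being nearest at 0.63 (0.10 to 1.17, limma adjusted p 0.111). That is 2 of 10 members called higher, beside 12.1% of all loci, and 0 of 10 lower, beside 2.96%. The calls depended on scaling: with each library centred on its median, the limma adjusted p was 0.0528 for SAPK1 and 0.0619 for SAPK6, and calls over all loci fell to 216 higher and 35 lower, against 1567 and 382 without centring. Any difference between the genotypes in response counts as error in this fit.

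Counted without the 2-fold limit, SAPK1 and SAPK6 included, the family leaned upward. In Pok, 9 of 10 loci were higher by any amount in salt than in control, and 55.1% of all loci considered were. In IR29 it was 10 of 10, beside 70.7% of all loci. The Pok count includes SAPK8, at a ratio of 1.00. Above the median shifts of the annotated transcripts lay 8 of 10 loci in Pok and 9 of 10 in IR29, for which the share over all loci was not computed. The median log2 ratio of FPKM plus 1 over the 10 loci was 0.39 in Pok and 0.62 in IR29, and over all loci considered it was 0.06 in Pok and 0.32 in IR29. After centring the members' medians were 0.33 in Pok and 0.37 in IR29, so most of the gap between the genotypes went with the shift of the whole libraries.

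SAPK1, a subclass II kinase, had the largest salt ratio of the family in Pok. Its locus summed to 61.1 FPKM in Pok salt and 16.8 FPKM in Pok control, and to 56.6 FPKM in IR29 salt and 17.5 FPKM in IR29 control. Both salt libraries were above both controls, with folds of 3.64 in Pok and 3.24 in IR29, or 3.49 and 2.71 after centring. Of all loci considered, 5.78% had a larger fold in Pok and 6.71% in IR29. SAPK1 moved up to rank 1 of the family in both salt libraries, against rank 6 in Pok control and rank 4 in IR29 control.

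The signal at SAPK1 came almost wholly from class j variants. Its annotated transcript Os03g27280.1 was listed at 0 FPKM in Pok salt, Pok control and IR29 salt and at 0.887 FPKM in IR29 control, so class j variants held 100% of the locus sum in the first 3 of these libraries and 94.9% in the last. Variant TCONS_00027527 was at 35.1 FPKM in Pok salt and 8.84 FPKM in Pok control, and at 36.3 FPKM in IR29 salt and 9.31 FPKM in IR29 control. Variant TCONS_00027532 was at 24.8 FPKM in Pok salt and 7.93 FPKM in Pok control, and at 20.3 FPKM in IR29 salt and 7.28 FPKM in IR29 control. Both variants were higher in each salt library than in either control, by 3.97-fold and 3.13-fold in Pok and by 3.90-fold and 2.79-fold in IR29. Another variant, TCONS_00027531, was listed at 1.14 FPKM in Pok salt only, and one was at 0 throughout. A count that uses only annotated transcripts does not see SAPK1 at all.

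The assembled region that holds SAPK1 is long, chr3:15602477-15664379 in MSU v6.1, and includes other annotated loci. Of these, 8 have annotated or class j transcripts, 5 of them were at 5 FPKM or more in a library of a salt pair, and 0 of them were called higher in either genotype. The largest of the neighbours, Os03g27260, was at 69.6 FPKM in Pok salt and 93.4 FPKM in Pok control, and at 84.1 FPKM in IR29 salt and 72.8 FPKM in IR29 control. Os03g27230 was at 76.8 FPKM in Pok salt and 49.8 FPKM in Pok control, and at 63.5 FPKM in IR29 salt and 38.6 FPKM in IR29 control. The salt ratio past 2-fold at SAPK1 was therefore not shared by the measured loci around it.

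SAPK6, a subclass I kinase that can phosphorylate bZIP factors of the ABA pathway, was the other member called higher in both genotypes. It has 1 transcript in the table, Os02g34600.1 (chr2:20740394-20745511), with 22.0 FPKM in Pok salt and 9.71 FPKM in Pok control, and with 26.6 FPKM in IR29 salt and 6.41 FPKM in IR29 control. The salt libraries lay well above both controls, with folds of 2.27 in Pok and 4.15 in IR29, or 2.17 and 3.47 after centring. Larger folds were found at 10.4% of all loci considered in Pok and at 4.76% in IR29. In IR29 control SAPK6 ranked 9 of 10 and in IR29 salt it ranked 5, and its share of the family was 9.10% in IR29 salt and 3.68% in IR29 control. In Pok its rank was 7 under salt and 8 under control conditions.

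SAPK3, also of subclass II (chr10:22223207-22226190), was nearest to the limit in Pok. Its main transcript Os10g41490.1 was at 35.1 FPKM in Pok salt and 18.0 FPKM in Pok control, and at 22.9 FPKM in IR29 salt and 15.8 FPKM in IR29 control. The salt libraries were again above both controls, but the ratios, 1.95 in Pok and 1.45 in IR29, missed 2-fold. Transcript Os10g41490.2 was listed at 2.23 FPKM in Pok control and at 0 in the other libraries, and Os10g41490.3 stayed below 1 FPKM.

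**Figure D2:**
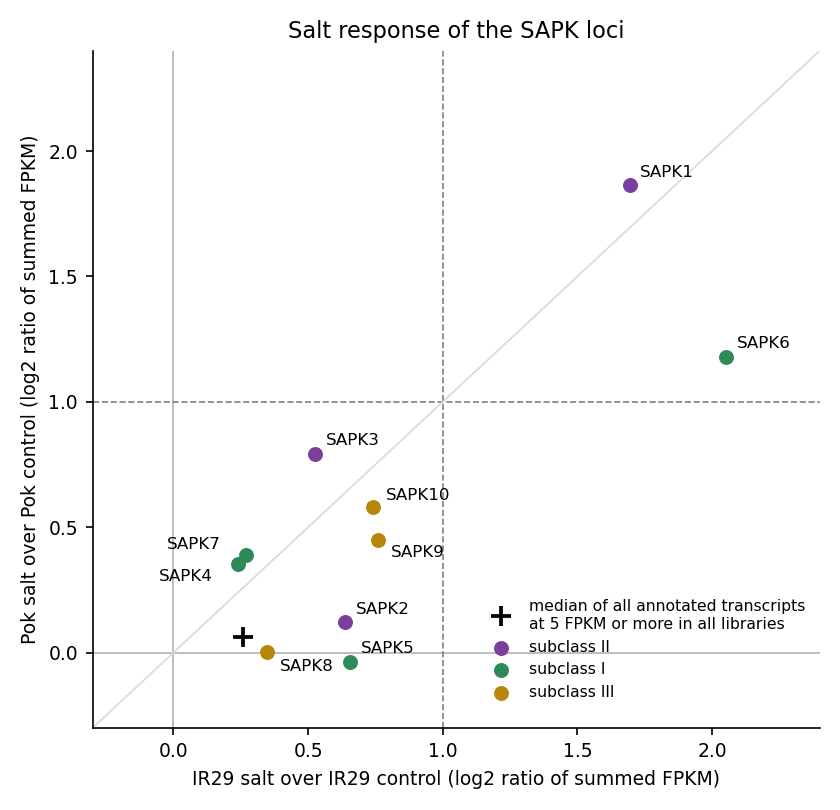
Salt response of each SAPK locus as log2 ratio of summed FPKM, salt over control, in Pok (vertical axis) and IR29 (horizontal axis), coloured by subclass, with dashed lines at the 2-fold limit and a grey line of equal response. SAPK1 and SAPK6 lie past 2-fold on both axes, at folds of 3.64 and 2.27 in Pok and 3.24 and 4.15 in IR29, and the black cross marks the median over those 7424 annotated transcripts, 0.06 in Pok and 0.26 in IR29.

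No member of subclass III passed 2-fold, and SAPK8 had the smallest ratios of the 3 loci. SAPK8 (chr3:31645571-31651155), which phosphorylates bZIP factors in rice as SAPK9 and SAPK10 do, summed to 39.5 FPKM in Pok salt and 39.4 FPKM in Pok control, and to 40.2 FPKM in IR29 salt and 31.6 FPKM in IR29 control. The Pok libraries gave a ratio of 1.00, and the IR29 ratio of 1.27 was 1.06 after centring. Its annotated transcript Os03g55600.1 was at 29.3 FPKM in Pok salt and 28.5 FPKM in Pok control, and at 28.2 FPKM in IR29 salt and 21.9 FPKM in IR29 control, the highest mean of all annotated SAPK transcripts. The class j variant TCONS_00024758 ran beside it at 10.2 FPKM in Pok salt and 11.0 FPKM in Pok control, and at 12.0 FPKM in IR29 salt and 9.72 FPKM in IR29 control.

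SAPK9 (chr12:24421391-24428463) was lower in level and somewhat higher under salt. Os12g39630.1 was at 10.9 FPKM in Pok salt and 8.01 FPKM in Pok control, and at 13.4 FPKM in IR29 salt and 7.17 FPKM in IR29 control. The ratio of this transcript was 1.37 in Pok and 1.87 in IR29, both under the limit. By locus the SAPK9 folds were 1.37 in Pok and 1.70 in IR29. The other locus in the same assembled region, Os12g39620, annotated as a disease resistance protein, was at 19.2 FPKM in Pok salt and 9.85 FPKM in Pok control, and at 25.9 FPKM in IR29 salt and 10.1 FPKM in IR29 control, and was called higher in IR29. The kit as described does not mark the strand of origin, and overlap of reads between both loci was not tested.

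SAPK10 (chr3:23067201-23069833), the least abundant member, had 6.60 FPKM in Pok salt and 4.07 FPKM in Pok control, and 6.20 FPKM in IR29 salt and 3.65 FPKM in IR29 control for Os03g41460.1. Its ratio was 1.62 in Pok and 1.70 in IR29. Its class j variant stayed below 1 FPKM in every library. Summed over SAPK8, SAPK9 and SAPK10, subclass III had 57.5 FPKM in Pok salt and 52.2 FPKM in Pok control, and 60.3 FPKM in IR29 salt and 43.5 FPKM in IR29 control, which gave folds of 1.10 in Pok and 1.39 in IR29. The corresponding folds were 1.83 in Pok and 1.98 in IR29 for subclass II, and 1.24 in Pok and 1.58 in IR29 for subclass I. By locus, subclass II folds in Pok and IR29 were 3.64 and 3.24 for SAPK1, 1.09 and 1.56 for SAPK2, and 1.73 and 1.44 for SAPK3.

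Among the remaining members, SAPK2 (chr7:25716761-25729187), whose loss makes rice less sensitive to ABA, had an annotated transcript Os07g42940.4 at 19.8 FPKM in Pok salt and 18.9 FPKM in Pok control, and at 24.5 FPKM in IR29 salt and 16.8 FPKM in IR29 control. The ratios were 1.05 in Pok and 1.46 in IR29. Its class j variant TCONS_00056411 was almost as abundant, at 20.2 FPKM in Pok salt and 14.1 FPKM in Pok control, and at 19.4 FPKM in IR29 salt and 13.6 FPKM in IR29 control, with a ratio of 1.43 in both genotypes. Of the minor forms, Os07g42940.2 was listed at 1.54 FPKM in Pok salt, 2.69 FPKM in Pok control and 0 in both IR29 libraries. Variant TCONS_00056410 was at 0 in Pok salt and 1.73 FPKM in Pok control, and at 4.55 FPKM in IR29 salt and 0.702 FPKM in IR29 control. These low values changed order between libraries without moving the locus past 2-fold, which had folds of 1.09 in Pok and 1.56 in IR29.

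SAPK4 (chr1:37709162-37719668), whose overexpression is known to raise salt tolerance in rice, had Os01g64970.1 at 25.8 FPKM in Pok salt and 23.6 FPKM in Pok control, and at 16.6 FPKM in IR29 salt and 13.7 FPKM in IR29 control. The salt ratios of this transcript were small, 1.09 in Pok and 1.22 in IR29, and both Pok libraries were above both IR29 libraries. By locus the SAPK4 folds were 1.28 in Pok and 1.18 in IR29. Class j variant TCONS_00004701 was at 20.1 FPKM in Pok salt and 13.2 FPKM in Pok control, and at 11.7 FPKM in IR29 salt and 8.65 FPKM in IR29 control. Variant TCONS_00004698 was at 5.37 FPKM in Pok salt and 3.65 FPKM in Pok control, and at 5.55 FPKM in IR29 salt and 6.32 FPKM in IR29 control. SAPK7 (chr4:21242515-21248009) had Os04g35240.1 at 16.1 FPKM in Pok salt and 11.5 FPKM in Pok control, and at 16.4 FPKM in IR29 salt and 13.6 FPKM in IR29 control. Salt ratios of this transcript were 1.40 in Pok and 1.20 in IR29, and the SAPK7 locus folds were 1.31 in Pok and 1.20 in IR29. Its class j variant was at 1.58 FPKM in Pok salt and 1.96 FPKM in Pok control and was listed at 0 in both IR29 libraries.

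SAPK5 (chr4:35159174-35161130) differed most between libraries in the makeup of its transcripts. Its annotated transcript Os04g59450.1 was at 21.3 FPKM in Pok salt and 23.3 FPKM in Pok control, and at 16.3 FPKM in IR29 salt and 12.8 FPKM in IR29 control. Variant TCONS_00034406 was at 18.1 FPKM in Pok salt and 21.6 FPKM in Pok control, and at 8.86 FPKM in IR29 salt and 2.30 FPKM in IR29 control. Both IR29 values lay below both Pok values, with IR29 control the lowest, and the variant's ratio was 0.838 in Pok and 3.85 in IR29. Variant TCONS_00034405 was at 5.74 FPKM in Pok salt and 1.48 FPKM in Pok control, and at 1.23 FPKM in IR29 salt and 0.992 FPKM in IR29 control, so here Pok salt was the high library. Class j variants held 52.8% of the SAPK5 sum in Pok salt, 49.8% in Pok control, 38.2% in IR29 salt and 19.7% in IR29 control.

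For comparison, the class j share at SAPK4 was 50.2% in Pok salt, 41.7% in Pok control, 51.0% in IR29 salt and 52.5% in IR29 control. At SAPK2 it lay between 41.5% and 49.5%, and at SAPK8 between 25.8% and 30.8%. The variants of SAPK7, SAPK9 and SAPK10 held no more than 14.5% in any library, and SAPK3 and SAPK6 had none in the table. Cufflinks divides reads between overlapping transcripts of a locus by estimate, and the table gives no error for these shares. How short reads that match several SAPK genes were divided between them was not tested either.

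**Figure D3:**
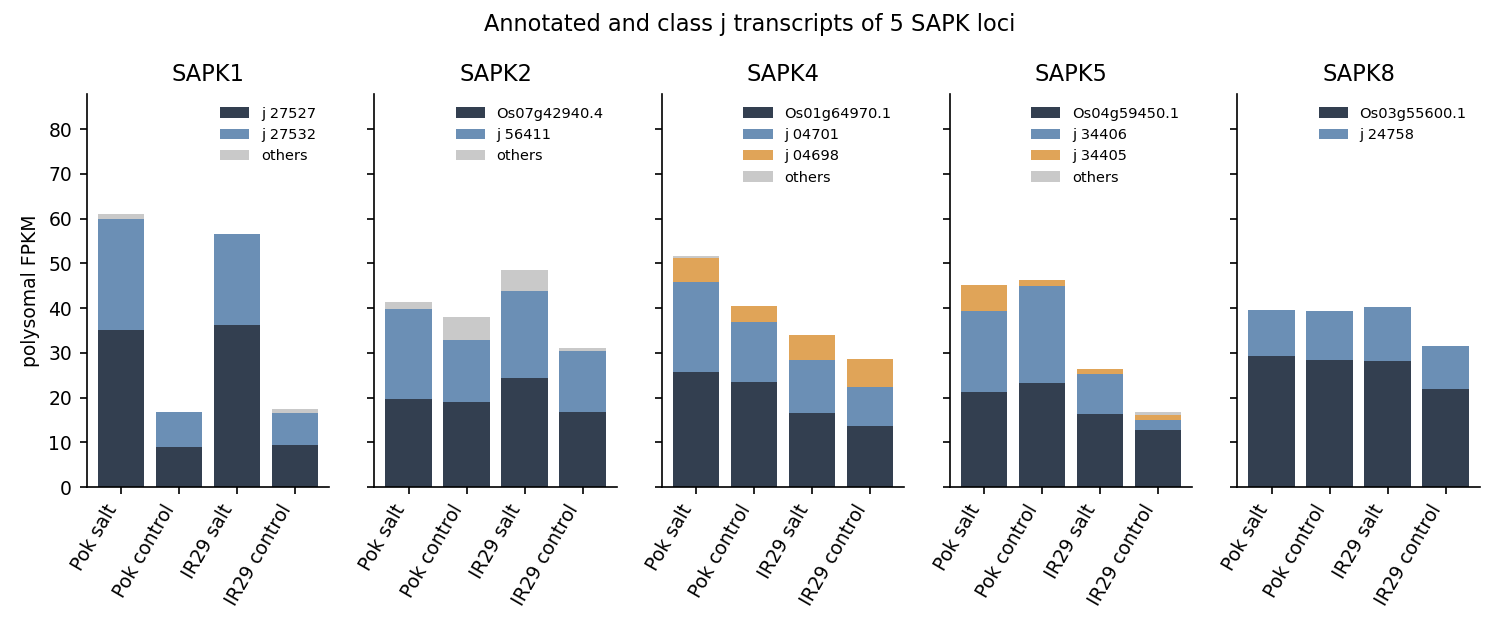
Polysomal FPKM of the transcripts of SAPK1, SAPK2, SAPK4, SAPK5 and SAPK8 in each library, stacked to the locus sum (vertical axis, linear from 0, 1 bar per library). Annotated transcripts are named by locus, class j variants by j and the last digits of their assembly number, and transcripts below 5 FPKM in all libraries are pooled as others. The block of SAPK5 variant TCONS_00034406 measures 18.1 and 21.6 FPKM in Pok salt and Pok control and 8.86 and 2.30 FPKM in IR29 salt and IR29 control.

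Counted singly, annotated transcripts gave fewer salt calls than the locus sums. In Pok salt over Pok control 1 of 9 annotated SAPK transcripts considered was higher, Os02g34600.1 of SAPK6, beside 15.7% of all 11551 annotated transcripts, and 0 of 9 were lower, beside 5.61%. The same transcript was the 1 of 9 called higher in IR29 salt over IR29 control, beside 19.1% of 11119, and 0 of 9 were lower, beside 5.96%. Among class j variants 3 of 8 were higher in Pok, beside 14.4% of all 5342, and 0 of 8 were lower, beside 11.7%. In IR29 3 of 7 class j variants were higher, beside 24.5% of all 5129, and 0 of 7 were lower, beside 9.28%. The SAPK variants called were TCONS_00027527 and TCONS_00027532 of SAPK1 in both genotypes, TCONS_00034405 of SAPK5 in Pok and TCONS_00034406 of SAPK5 in IR29.

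The next question was whether Pok and IR29 differed. Under control conditions SAPK5 alone was called by locus, at 46.3 FPKM in Pok control and 16.8 FPKM in IR29 control, a fold of 2.77 that was 2.20 after centring. That is 1 of 9 loci considered, beside 7.67% of all loci called higher in Pok control, and 0 of 9 were lower, beside 5.68%. The annotated SAPK5 transcript Os04g59450.1 had a fold of 1.82, or 1.45 after centring, and was not called. SAPK10 did not reach 5 FPKM in either control library and was not considered. Under salt 0 of 10 loci were higher in Pok salt, beside 7.23% of all loci, and 0 of 10 were lower, beside 5.46%. The largest of the salt ratios were 1.71 for SAPK5, 1.52 for SAPK4 and 1.497 for SAPK3, and the smallest was 0.816 for SAPK9.

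Genotype calls on single transcripts were equally few. Of the annotated SAPK transcripts 0 of 9 were higher in Pok salt over IR29 salt, beside 9.87% of all annotated transcripts, and 0 of 9 were lower, beside 6.76%. In Pok control over IR29 control 0 of 8 were higher, beside 11% of all, and 0 of 8 were lower, beside 6.62%. Class j variants gave 2 of 8 higher in Pok salt, beside 12.2%, and 0 of 8 lower, beside 13.1%. Under control conditions 1 of 7 was higher in Pok, beside 19.6%, and 0 of 7 were lower, beside 8.17%. All of the variants called belong to SAPK5: TCONS_00034406 had Pok over IR29 folds of 2.04 under salt and 9.38 under control conditions, and TCONS_00034405 had a fold of 4.68 under salt.

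Across members the median log2 ratio of the loci was 0.09 for Pok salt over IR29 salt and 0.30 for Pok control over IR29 control, and for all loci considered it was 0.05 and 0.32 in the same comparisons. After centring the members' medians were -0.02 under salt and -0.01 under control conditions. By subclass, the Pok over IR29 fold of subclass I was 1.32 under salt and 1.68 under control conditions, and of its loci SAPK4 and SAPK5 were higher in Pok than in IR29 by at least 1.41-fold in both conditions. The fold of subclass III was 0.954 under salt and 1.20 under control conditions, and that of subclass II was 1.07 under salt and 1.16 under control conditions. After centring, subclass I had 1.22 under salt and 1.34 under control conditions. Centred folds were 0.878 and 0.956 for subclass III, and 0.986 and 0.922 for subclass II, in the same order. They were 1.40 and 1.12 for SAPK4, and 1.58 and 2.20 for SAPK5. Several of these genotype ratios thus depended on scaling. Both genotypes were aligned to one japonica reference, and the effect of sequence differences between genotypes on these values was not tested.

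**Figure D4:**
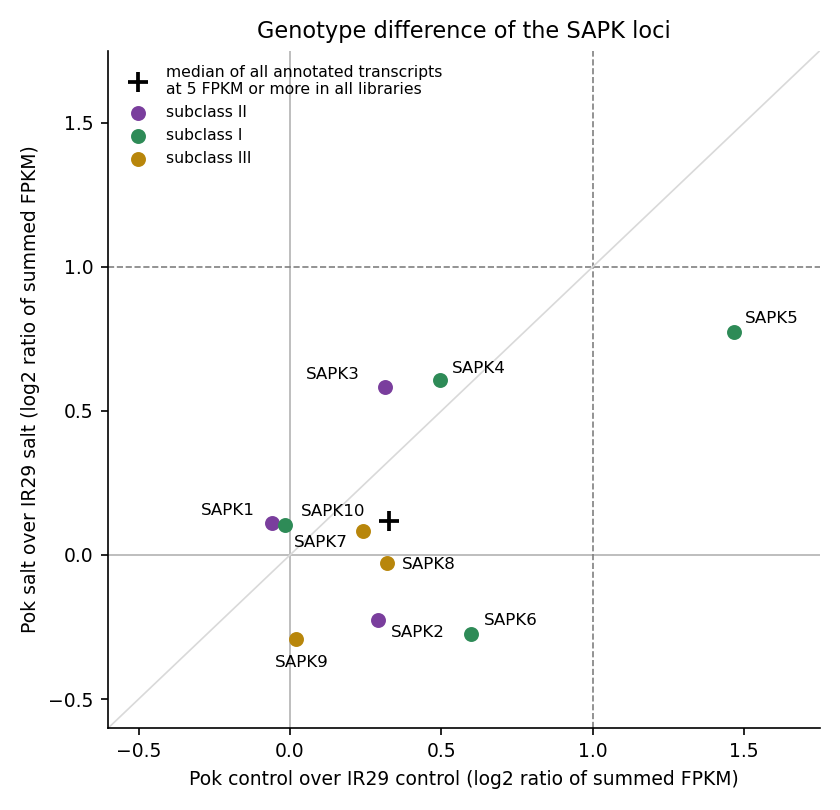
Pok over IR29 log2 ratio of summed FPKM for each SAPK locus under salt (vertical axis) and control conditions (horizontal axis), coloured by subclass, with dashed lines at the 2-fold limit and a grey line of equal ratio. SAPK5 lies past the limit under control conditions only, at a fold of 2.77 beside 1.71 under salt, and the black cross marks the median over those 7424 annotated transcripts, 0.12 under salt and 0.33 under control conditions.

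The salt responses of the genotypes were set side by side by locus, as the log2 response of Pok minus that of IR29. The largest differences were -0.79 for SAPK6, -0.66 for SAPK5 and -0.50 for SAPK2, where the IR29 response was the larger one. SAPK8 (-0.34), SAPK9 (-0.29) and SAPK10 (-0.12) also had the larger response in IR29. SAPK3 (0.26) and SAPK1 (0.16) had the larger response in Pok, as did SAPK4 (0.11) and SAPK7 (0.12). These differences are before centring, and their order depended on it. Centred responses in Pok and IR29 were 1.04 and 1.65 for SAPK6, -0.10 and 0.38 for SAPK5, and 0.06 and 0.37 for SAPK2. They were 0.70 and 0.25 for SAPK3, and 1.74 and 1.39 for SAPK1, wider gaps than that of SAPK2. For SAPK6, Pok over IR29 was 0.827 under salt and 1.51 under control conditions, or 0.762 and 1.21 after centring. With 1 library a group these differences between genotypes were not tested.

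The family total was 1.40-fold higher in Pok salt than in Pok control and 1.68-fold higher in IR29 salt than in IR29 control, or 1.34 and 1.40 after centring. Without SAPK1 and SAPK6 the folds were 1.18 in Pok and 1.39 in IR29, and 1.13 and 1.16 after centring. SAPK1 and SAPK6 together held 25.0% of the family FPKM in Pok salt and 11.2% in Pok control, and 28.5% in IR29 salt and 13.7% in IR29 control.

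Other steps of the same pathway were read from lists of loci, each locus by its annotated transcript of highest mean and with a mean of 1 FPKM or more. ABA receptors share the Bet v I fold, and of 13 loci listed for this step, which the table annotates as bet v I allergen, CAPIP1 or cyclase/dehydrase proteins, 5 reached the mean. Only 3 of the 5 were at 5 FPKM or more in a library, and 0 of these 3 were called in any comparison. The median log2 ratio of the 5 was 0.07 in Pok and -0.02 in IR29 for salt over control. For all 16170 loci at this mean, 1667 were higher and 526 lower in Pok salt than in Pok control, and 1957 were higher and 591 lower in IR29 salt than in IR29 control, among 10901 considered in Pok and 10581 in IR29.

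The phosphatases that hold the kinases inactive had larger median ratios than the kinases, though the units differ. The list medians are of annotated transcripts, and the SAPK medians of 0.39 in Pok and 0.62 in IR29 are of locus sums. For the annotated SAPK transcripts considered, the medians were 0.41 in Pok and 0.51 in IR29. All 9 listed loci annotated as protein phosphatase 2C reached the mean, and 8 were considered in Pok and 6 in IR29. Of these, 6 were higher in Pok salt and 5 in IR29 salt than in their controls, and 0 were lower. Among all loci considered at this mean, 1667 of 10901 were higher in Pok salt and 1957 of 10581 in IR29 salt. The median log2 ratio of the 9 was 1.31 in Pok and 1.13 in IR29, beside 0.09 and 0.22 over all 16170 loci at this mean. Os09g15670.1 was at 73.3 FPKM in Pok salt and 19.2 FPKM in Pok control, and at 46.3 FPKM in IR29 salt and 4.59 FPKM in IR29 control. Os03g16170.1 was at 54.3 FPKM in Pok salt and 11.3 FPKM in Pok control, and at 39.9 FPKM in IR29 salt and 4.26 FPKM in IR29 control. Both were higher in each salt library than in either control. Os05g46040.1 was listed at 0 in both Pok libraries and was at 18.1 FPKM in IR29 salt and 4.80 FPKM in IR29 control.

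Of the 7 bZIP loci listed as substrates, 6 reached the mean, of which 3 were higher in Pok salt and 4 in IR29 salt, with 0 lower and a median log2 ratio of 0.82 in Pok and 1.14 in IR29. Os01g64730.1 was at 26.2 FPKM in Pok salt and 2.93 FPKM in Pok control, and at 17.5 FPKM in IR29 salt and 1.11 FPKM in IR29 control. Os02g52780.1 was at 14.9 FPKM in Pok salt and 6.71 FPKM in Pok control, and at 16.6 FPKM in IR29 salt and 2.61 FPKM in IR29 control. Further downstream, 6 of 6 dehydrin, LEA and seed protein loci considered were higher in Pok salt and 5 of 5 in IR29 salt. Os05g28210.1 was at 0.985 FPKM in IR29 salt and 0 in IR29 control and was not considered there. The medians of the 6 were 5.77 in Pok and 3.81 in IR29. Among all loci considered at a mean of 1 FPKM or more, 1667 of 10901 were higher in Pok salt and 1957 of 10581 in IR29 salt. Dehydrin Os11g26780.1, for example, was at 95.4 FPKM in Pok salt and 1.01 FPKM in Pok control, and at 31.3 FPKM in IR29 salt and 0.742 FPKM in IR29 control. The SAPK medians of locus sums, 0.39 in Pok and 0.62 in IR29, were closer to those of all loci than to these lists. The lists were chosen with results of these libraries known and are no independent evidence of direction.

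Related kinases gave a further comparison. Of 37 loci annotated as KIN1/SNF1/Nim1-like kinases, 30 reached the mean and 24 of these were considered in each genotype. Of the 24, 4 were higher and 0 lower in Pok salt, and 10 were higher and 0 lower in IR29 salt, with medians of 0.16 in Pok and 0.70 in IR29. Among all loci considered at this mean, 1667 of 10901 were higher and 526 lower in Pok salt. In IR29 salt 1957 of 10581 were higher and 591 lower. The share of these kinases called higher was thus close to the background in Pok and above it in IR29. Os09g25090.1 was at 19.5 FPKM in Pok salt and 4.25 FPKM in Pok control, and at 10.3 FPKM in IR29 salt and 2.01 FPKM in IR29 control. Os11g03970.1 differed between the genotypes, at 7.21 FPKM in Pok salt and 7.78 FPKM in Pok control, and at 23.9 FPKM in IR29 salt and 3.37 FPKM in IR29 control. Of 40 other CAMK-like loci, 29 reached the mean, with 22 considered in Pok and 20 in IR29, of which 1 was higher and 2 were lower in Pok salt, and 3 were higher and 0 lower in IR29 salt, with medians of 0.14 in Pok and 0.31 in IR29. Os02g03410.2, higher in both, was at 10.1 FPKM in Pok salt and 4.02 FPKM in Pok control, and at 11.5 FPKM in IR29 salt and 4.62 FPKM in IR29 control. Os01g09580.2, 1 of the 2 lower in Pok, was at 5.59 FPKM in Pok salt and 16.5 FPKM in Pok control. In IR29 it was at 4.68 FPKM under salt and 8.72 FPKM under control conditions.

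**Figure D5:**
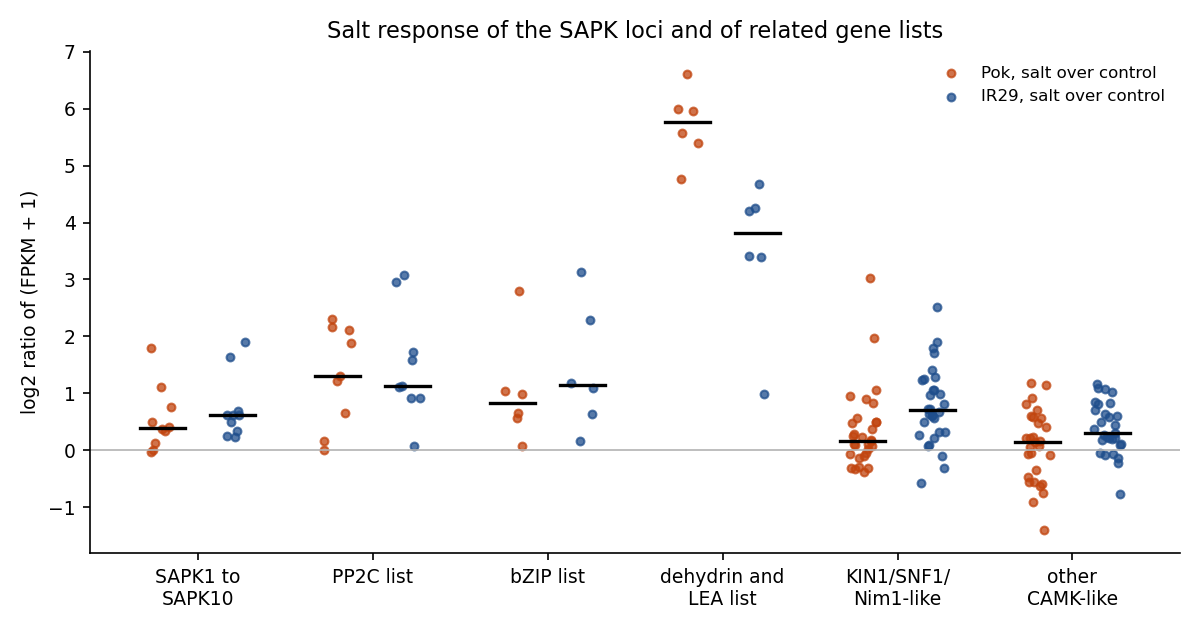
Log2 ratio of FPKM plus 1, salt over control, in Pok and IR29 for the 10 SAPK loci (locus sums) and for the pathway and kinase lists (annotated transcript of highest mean), 1 point per locus, with a black bar at each median. The SAPK medians are 0.39 in Pok and 0.62 in IR29, those of the protein phosphatase 2C (PP2C) list 1.31 and 1.13 and those of the dehydrin and LEA list 5.77 and 3.81. Sideways position within a list carries no value.

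Transcripts with a pattern over the 4 libraries like that of the most abundant annotated SAPK transcripts were sought among 8415 annotated transcripts with a mean of 5 FPKM or more, by distance between centred log2 values of FPKM plus 1. The flat pattern of SAPK8 was common, with 709 transcripts within a distance of 0.2. The nearest were Os02g35560.1, an F-box protein (distance 0.021), Os03g01810.1, an SNF7 domain protein (0.024), and Os03g18310.1, annotated as 6PF-2-K/Fru-2,6-P2ASE (0.024). That of SAPK3, high in Pok salt, had 36 transcripts within 0.2. Its nearest were a glutathione S-transferase, Os01g55830.1 (0.064), a polygalacturonase inhibitor, Os07g38130.1 (0.090), and Os02g35830.1, annotated as an extracellular ligand-gated ion channel (0.112). With 4 libraries such likeness is a description.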

How the data were processed

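Polysomal RNA of 4 libraries, 1 per genotype and treatment, was analysed. After a base quality filter, TopHat placed the authors' reads on MSU v6.1 (japonica), Cufflinks built transcripts, Cuffmerge and Cuffcompare joined and classed these, and Cuffdiff is named for the comparison. Versions are not given in the sources used here. The deposited values are FPKM per assembled transcript, with no counts, so depth and counting error are unknown.

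Ratios of FPKM were taken as deposited, over annotated transcripts, class j variants and locus sums of both, with Python 3.11.15, pandas 2.3.3 and numpy 2.4.6. The salt response shared by the genotypes was fitted with limma 3.58.1 (R 4.3.3, genotypes as pairs, moderated variance with a trend, Benjamini-Hochberg adjustment over all loci), a test added after seeing the data. Features needed 5 FPKM in a library of the pair and a 2-fold ratio to be called, and log2 values used a pseudocount of 1, which understates changes of low features. Positions are assembled loci in MSU v6.1, counted from 1. The 2-fold call was checked only on values changed by a known factor without noise. The paired fit was checked on simulated loci with equal noise in every library and no shift between libraries. These checks do not cover the scaling on which the paired calls depended. No sequences were printed because none of this build were at hand.

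All 10 members were named, with every transcript that reached 1 FPKM. From each list, called members with the largest changes (at most 4) could be named, and not all of these were, nor always the largest. Loci beside SAPK1 and SAPK9 were named after their values were seen. Members and lists were chosen with earlier results of these data known. Alternatives were other minimums, fold limits, pseudocounts and scalings, and locus sums.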

Additional observations from a re-analysis of the deposited data

Results flagged for a closer look

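The salt response ran in opposite directions in the genotypes for 4 SAPK transcripts that reached 5 FPKM in a library of both salt pairs, which is what drew attention to them. In each case this is 1 library against 1, and the difference was not tested. Values are log2 ratios of FPKM plus 1, salt over control, before centring, and the difference is Pok minus IR29. The share of all transcripts with opposite signs was not computed, so the count of 4 has no background. After centring all 4 kept opposite signs, but the IR29 value was 0.09 for SAPK5 Os04g59450.1 and 0.04 for SAPK8 TCONS_00024758. The annotated SAPK8 transcript Os03g55600.1 then had opposite signs too, with -0.02 in Pok and 0.10 in IR29.

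Variant TCONS_00034406 of SAPK5 had the largest difference of the 4, -1.82, with -0.24 in Pok and 1.58 in IR29. The annotated SAPK5 transcript Os04g59450.1 had a difference of -0.45, with -0.12 in Pok and 0.33 in IR29. Variant TCONS_00004698 of SAPK4 differed the other way, by 0.61, with 0.45 in Pok and -0.16 in IR29. Variant TCONS_00024758 of SAPK8 had a difference of -0.37, with -0.10 in Pok and 0.28 in IR29. Below 5 FPKM, 3 more class j variants had opposite signs: TCONS_00056410 of SAPK2 with -1.45 in Pok and 1.70 in IR29, TCONS_00004700 of SAPK4 with 0.59 in Pok and -0.13 in IR29, and TCONS_00028306 of SAPK10 with -0.15 in Pok and 0.14 in IR29.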

How the results depend on the processing

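Counts of annotated SAPK transcripts past the limits depended on the limits and on the unit. In Pok salt over Pok control, where 1 was higher, a 1.5-fold limit gave 3, a 4-fold limit 0, locus sums 2 and counting annotated and class j transcripts singly 4, and a minimum of 1 FPKM gave 1 lower in place of 0. In IR29 salt over IR29 control, where 1 was higher, the 1.5-fold limit gave 3, locus sums 2 and single counting 4. In Pok salt over IR29 salt, where 0 were higher, a minimum of 1 FPKM gave 1, the 1.5-fold limit 2 and single counting 2. In Pok control over IR29 control, where 0 were higher, a minimum of 1 FPKM gave 2, the 1.5-fold limit 3, locus sums 1 and single counting 1. Single counting was chosen after seeing the data. Of the alternative counts, 57 kept the main value or stayed within 1.5 times of it, 14 were larger and 1 was smaller. All 16 recomputed medians, 128 transcript ratios and 32 response differences stayed within 1.5-fold of their values, and 4 transcript ratios and 1 response difference moved. Those that moved were the low transcripts Os10g41490.2 and Os07g42940.2 at a pseudocount of 0.1. No called ratio changed sign, but small uncalled values did under other scalings: 16 transcript ratios, none over 0.18 in size, 2 response differences and 4 medians. The median of annotated SAPK transcripts was 0.05 for Pok salt over IR29 salt, against -0.06 centred and -0.27 with upper-quartile scaling. It was 0.27 for Pok control over IR29 control, against -0.04 centred and -0.07 with upper-quartile scaling.

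In the fit with genotypes as pairs, 2 loci were higher, SAPK1 and SAPK6, as they were with a pseudocount of 0.1, with a mean of 10 FPKM or more and without a trend of the variance. With median centring 0 were higher, and the cause was not tested. The limma adjusted p ranged from 9.80e-05 to 0.0528 for SAPK1 and from 0.000423 to 0.0619 for SAPK6 over these settings. This fit and its settings were chosen after seeing the data.

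No paired analysis by replicate number was run, since each group has 1 library. The table holds no counts, so the precision of single values, above all those below 5 FPKM, is not known.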
